A study of Mus musculus with 4 samples.

Results

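The genes described here defend cells against peroxides and electrophiles: the enzymes that make, use and recycle glutathione, the thioredoxin and peroxiredoxin systems, the superoxide dismutases and catalase, and the regulator NRF2 with its inhibitor KEAP1. The rule takes members by gene symbol alone (glutathione S-transferase, peroxiredoxin, glutathione peroxidase, thioredoxin and glutaredoxin families, and 16 named genes) through the transcript accession of each array probe. It reads no measured value, though it was chosen with earlier results of these data known. The rule found 101 probes of 74 genes among 39429 probes, of which 27427 had a symbol (20832 genes). Every probe of a gene was used. A further 11 genes that fit the rule, mostly pseudogenes, had no matching probe.

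The samples were cerebral cortex from adult male mice, aged 3 months, on the C57BL/6N background, either Ndrg2-/- or wild type. Ndrg2, a member of the N-myc downstream regulated family, is mainly an astrocyte gene in brain. Each of 4 dual-colour arrays carried 1 knockout sample (Cy5, red) and 1 wild-type sample (Cy3, green) with the same replicate number. A log2 ratio is knockout over wild type as labelled, so positive values are higher in knockout, and errors are SDs over n = 4 arrays. No array exchanged the dyes, so genotype and dye cannot be told apart. The labels give neither the deleted part of Ndrg2 nor the number of mice behind each sample, so the p-values measure only the spread between these samples. The Ndrg2 probe was higher, not lower, in the samples labelled knockout (0.11, 0.37, 0.40 and 0.38 on arrays 1 to 4, mean 0.32 ± 0.14, adjusted p 0.0173 in limma). Whether this probe lies inside or outside the deleted part could not be checked. The rise of the Ndrg2 probe is therefore left unexplained, and directions rest on the labels alone.

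A probe was kept if the scanner software marked it as well above background in either channel on every array, and was called if its Benjamini-Hochberg adjusted p over all kept probes was under 0.05 in limma. This kept 91 member probes of 66 genes, among 27661 probes overall. The median spot signal was 94 to 122 in the green channel (local background 22 to 26) and 283 to 335.5 in the red (87 to 96). Having only 4 arrays limits the precision. All markers of astrocytes (10), neurons in general (7), cortical excitatory neurons (7) and striatal neurons (7) were above background. Of the astrocyte markers 1 was called higher (median 0.15, summed log2 intensity 17.31 to 17.41 in wild type and 17.52 to 17.61 in knockout). Of the cortical excitatory markers 4 were higher and 1 lower (median 0.15, 14.78 to 14.95 in wild type and 14.97 to 15.10 in knockout). Of the general neuron markers 2 were higher and 1 lower (median 0.04). Of the striatal markers none was higher and 1 was lower (median -0.07). The part of these shifts in the results below was not tested. Of 10 meningeal fibroblast markers, 9 were called higher (median 0.50, array medians 0.58, 0.44, 0.24 and 0.68). These marker counts use 1 probe a gene, and in that fit 10.4% of all genes were called higher and 6.9% lower. In bulk tissue, fewer cells of a type and less RNA per cell cannot be told apart.

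As background, glutathione is built by glutamate-cysteine ligase and glutathione synthetase, spent by peroxidases and transferases, and restored by glutathione reductase with NADPH. Thioredoxin and its reductases serve the peroxiredoxins in the same way. NRF2, held down by KEAP1 until oxidants or electrophiles release it, binds the antioxidant response element in many of these genes. In brain it is most active in astrocytes, which export glutathione precursors to neurons.

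The core of that element, TGACNNNGC on either strand, was searched from 250 bases before to 50 after the annotated start in the RefSeq promoter windows of GRCm38.p6. It was found in 14 of 88 member windows (15.9%), against 12.4% of all 32851 windows of 300 bases. Counted by gene, 14 of 64 members with a window had it (21.9%), against 14% of all 27025 genes. Among the 8 member genes with a called probe, only G6pdx had it. The stretches below are shown because they place the element upstream of the regulator, of textbook NRF2 targets and of that called gene. Capitals mark the core, which reads GCNNNGTCA where it lies on the opposite strand; each is printed 5′ to 3′ along its gene.
G6pdx (chrX:74428909-74428957, minus strand): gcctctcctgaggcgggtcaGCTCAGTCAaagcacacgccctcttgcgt
Nfe2l2 (chr2:75704875-75704913, minus strand): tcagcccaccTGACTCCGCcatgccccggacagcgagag
Gclm (chr3:122245403-122245451, plus strand): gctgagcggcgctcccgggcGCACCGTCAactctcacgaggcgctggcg
Txnrd1 (chr10:82859094-82859142, plus strand): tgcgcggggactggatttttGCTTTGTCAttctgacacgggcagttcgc
Prdx1 (chr4:116685446-116685494, plus strand): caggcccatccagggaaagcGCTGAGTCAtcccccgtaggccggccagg
A match is only these letters in this window. Nqo1, Hmox1 and Gclc were not among the 14 members with the motif. Of the 5 genes shown, G6pdx was called lower and the other 4 were not called, as described with their families below.

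Most antioxidant genes differed little between genotypes as labelled. Of the 91 kept member probes, 9 were called (9.89%), against 12.9% of all kept probes. Of these, 6 were higher (6.59%, against 7.39% of all kept probes) and 3 were lower (3.3%, against 5.54%). At an unadjusted p under 0.05 there were 29 (31.9%, against 31.7%). The 9 called probes belong to 8 genes. The glutathione transferase gene Gstm2 (2 of 3 probes), the peroxidase gene Gpx8, catalase (Cat, 1 of 2 probes) and the mitochondrial glutaredoxin genes Glrx5 and, on 1 very bright probe of 3, Glrx2 rose, while Prdx2, Txndc9 (1 of 3 probes) and G6pdx fell (turning above 0 with median centring in place of loess). The median over all kept member probes was 0.0042, and over all kept probes it was 0.0096.

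The called differences were small. Apart from 1 Glrx2 probe at 1.60 fold, they ran from 1.11 to 1.29 fold. That Glrx2 probe alone passed 1.5 fold in the mean (1.1% of member probes and 0.224% of all kept probes). The other 82 kept member probes lay between -0.18 and 0.20, with 43 above and 39 below 0. The lowest bound of their 95% intervals was -0.35 and the highest 0.38. These intervals are for single probes and hold only under this normalization, since median centring without loess put the member median at 0.35. For 81 of 91 member probes the whole interval lay inside 1.25 fold either way (89%, and 88.3% of all kept probes). Of the 91, 35 had 1 sign on all 4 arrays (38.5%, against 39.5% of all kept probes). In 6 the knockout and wild-type levels did not overlap (6.59%, against 13.5%).

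**Figure D1:**
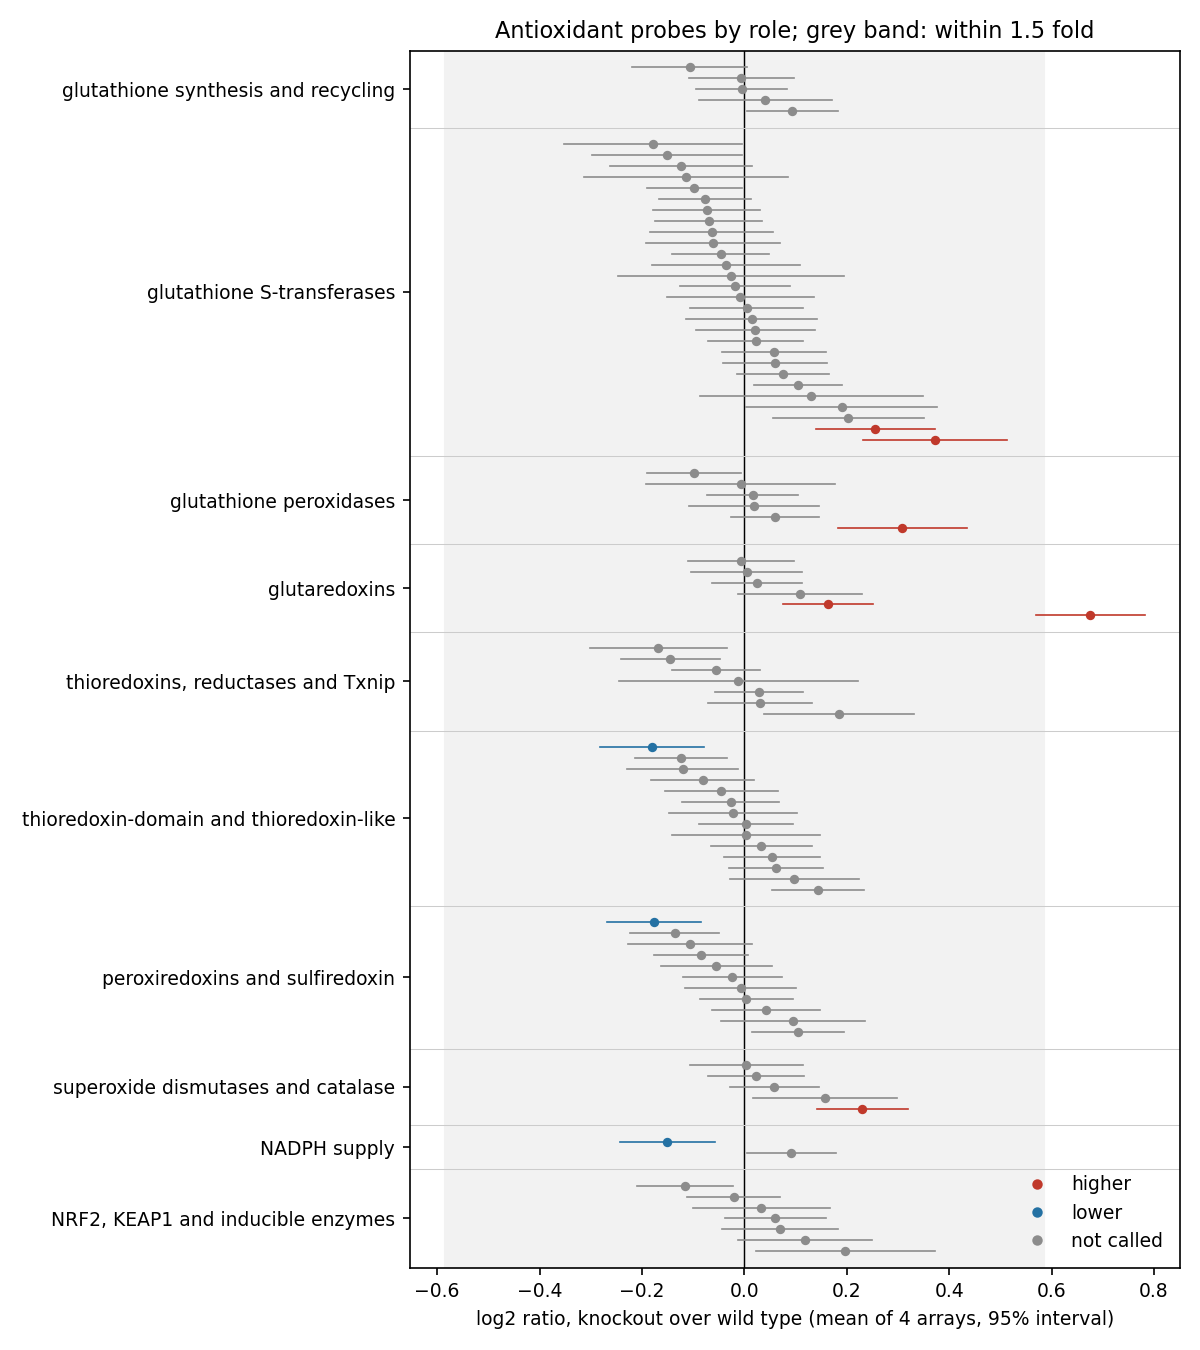
Mean log2 ratio (knockout over wild type, 4 arrays) of each of the 91 kept member probes, with its 95% interval, grouped by role; red and blue mark the 6 probes called higher and the 3 called lower. The mean of 1 Glrx2 probe lies outside the grey band of 1.5 fold, and those of the other probes lie inside it.

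The number of calls depended on each array. Without replicate 1, 2, 3 or 4, the member probes called were 2, 1, 4 and 6, and those of all kept probes were 963, 647, 1168 and 2385. The Glrx2 probe was called every time. With the scanner software's own processed signals, 5 member probes were called, and 7.92% of all kept probes. Median centring without loess shifted the median of all kept probes to 0.22 and called 72 member probes higher and 3 lower (82.4% of them, against 79.3% of all kept probes, 16417 higher and 5518 lower).

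The regulator NRF2 and its inhibitor showed no called probe. The probe for Nfe2l2, which encodes NRF2, read 0.11, 0.06, -0.06 and 0.18 on arrays 1 to 4. It was low on array 3 alone, and the mean was 0.07 ± 0.10 (95% interval -0.04 to 0.18, adjusted p 0.366). Keap1 read -0.16, -0.14, -0.04 and -0.12, below 0 on every array. Its mean of -0.12 ± 0.06 missed the threshold (adjusted p 0.0981). Both intervals lie inside 1.5 fold.

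Among the inducible enzymes none was called; of the 7 probes of this group, Keap1 and Nfe2l2 included, limma gave 2 an unadjusted p under 0.05 (Keap1 and 1 Hmox1 probe). The quinone reductase gene Nqo1 read -0.07, 0.24, 0.11 and 0.19, with array 1 apart in sign, and averaged 0.12 ± 0.13 (interval -0.01 to 0.25, adjusted p 0.192). Heme oxygenase 1 (Hmox1), which opens the heme ring, had 2 probes. One (A_51_P263965) read 0.42, 0.28, 0.16 and -0.07, averaging 0.20 ± 0.21 (adjusted p 0.121). Without replicate 4, the only array below 0, it was called (0.29). The other (A_55_P2029687) read 0.17, -0.11, 0.13 and -0.06, with no common sign, and averaged 0.03 ± 0.14. The constitutive isoform gene Hmox2 was at 0.06 ± 0.07 and -0.02 ± 0.04 on its 2 probes.

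Glutathione synthesis and recycling showed no called probe among 5 in limma (1 at an unadjusted p under 0.05, Gclc). The catalytic ligase subunit gene Gclc read 0.10, 0.12, 0.11 and 0.04, above 0 on every array, and averaged 0.09 ± 0.03 (interval 0.01 to 0.18, adjusted p 0.140). Its partner Gclm, the modifier subunit whose upstream stretch is shown above, read -0.0073, 0.04, -0.0017 and -0.05, straddling 0. Its mean was -0.0052 ± 0.04 (interval -0.09 to 0.08). Glutathione synthetase (Gss) averaged 0.04 ± 0.13. Glutathione reductase (Gsr) stood at -0.11 ± 0.10 (A_55_P2103055) and -0.0055 ± 0.08 (A_55_P1966982). The dehydrogenases of the pentose phosphate pathway supply NADPH, and 1 of their 2 probes was called.

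G6pdx, the first and rate-limiting enzyme of that pathway, fell, though median centring without loess put it at 0.22. It read -0.18, -0.08, -0.16 and -0.19, below 0 on all arrays, and averaged -0.15 ± 0.05 (adjusted p 0.0483). Its log2 intensities were 11.46, 11.39, 11.39 and 11.20 in wild type and 11.27, 11.32, 11.23 and 11.01 in knockout, so the genotypes overlapped even though each pair ran the same way. The call ended in 11 of 13 alternatives, among them each array left out in turn. Pgd, which acts further down the same pathway, averaged 0.09 ± 0.02 (adjusted p 0.139) and was above 0 on every array.

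Glutathione S-transferases, which attach glutathione to electrophiles, formed the largest family: 32 probes of 21 genes, 28 of them kept (18 genes). Only Gstm2 was called, on 2 of its 3 probes, and 26 kept probes were not. The family median was -0.01. Probe A_51_P284486 of Gstm2 read 0.44, 0.39, 0.16 and 0.51, lowest on array 3 and highest on array 4. Its mean was 0.37 ± 0.15 (adjusted p 0.0129). Probe A_55_P2134004 read 0.30, 0.24, 0.11 and 0.37, with the arrays in the same order, and averaged 0.26 ± 0.11 (adjusted p 0.0209). The third Gstm2 probe (A_55_P1966438) was at -0.02, -0.03, -0.05 and 0.18, close to 0 except on array 4, with a mean of 0.02 ± 0.11. This probe was dim, with 94.0% of kept probes brighter, and the background correction used here shrinks ratios of dim probes. With the scanner software's processed signals it averaged 0.32, not called (adjusted p 0.127 in limma). The part of dimness in its value was not tested.

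Log2 intensities of the first Gstm2 probe were 8.33, 8.49, 9.01 and 8.74 in the wild-type samples and 8.76, 8.87, 9.17 and 9.25 in the knockout samples. The samples of the 2 genotypes overlapped, since the level varied more between pairs than within them. Both Gstm2 calls ended without replicate 1, without replicate 2 and without pairing, and that of A_55_P2134004 also without replicate 4. The order of the arrays for both probes, array 4 above 1, 2 and 3, is also that of the meningeal list medians given above. It is not particular to that list, since medians of the endothelium markers had the same order (0.07, 0.0058, -0.01 and 0.16). The summed log2 intensity of the meningeal list ran from 12.88 to 13.85 in wild type and from 13.39 to 14.21 in knockout, and all 10 of its markers were above background. The part of either list in the Gstm2 result was not tested.

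No other Mu-class probe was called, and no difference from Gstm2 was tested. Chosen after their values were seen, the 8 kept probes of Gstm1, Gstm3, Gstm4, Gstm5 and Gstm7 all had their lowest ratio on array 1, between -0.42 and -0.14. Array 1 was lowest for 27.0% of all kept probes and for 40 of 91 member probes. On array 3 the same 8 probes lay between -0.06 and 0.10. None of the 8 was called, and 1, of Gstm4, had an unadjusted p under 0.05 in limma. Blood markers also had their lowest median on array 1 (-0.38, -0.11, -0.06 and 0.35 on arrays 1 to 4), and their part was not tested. Gstm1, abundant in astrocytes, averaged -0.06 ± 0.13 (A_55_P2062190) and -0.0079 ± 0.16 (A_55_P1966432), and Gstm5 averaged -0.11 ± 0.24. Gstm6 did not share this order of arrays: its 3 kept probes, at their highest on array 1, averaged between 0.0045 and 0.08, and A_55_P2031692 was lowest on array 3 as the called Gstm2 probes were. Probes of such close paralogs may share transcripts, which was not tested, so values within the class may not be independent.

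**Figure D2:**
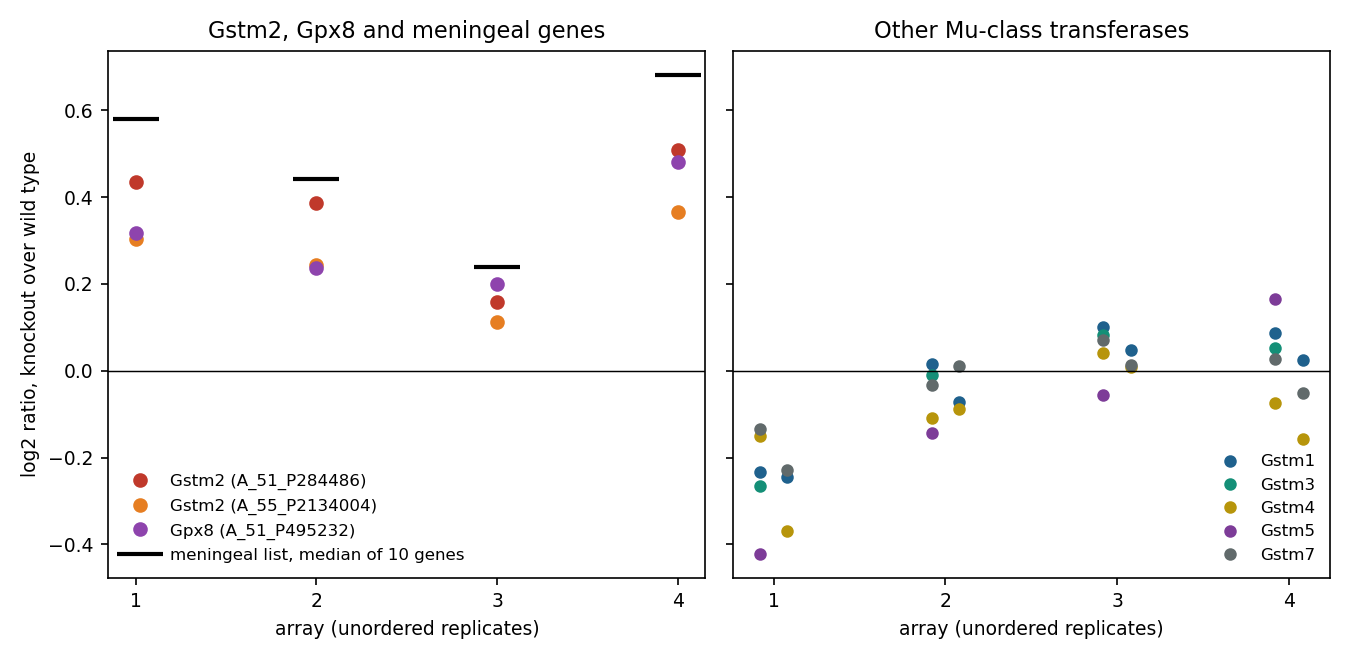
Log2 ratio (knockout over wild type) on each of the 4 unordered arrays, 1 point per probe. Left, the 2 called Gstm2 probes and Gpx8 beside the median of 10 meningeal genes (black bars), which are all lowest on array 3; right, the 8 probes of Gstm1, Gstm3, Gstm4, Gstm5 and Gstm7, which are all lowest on array 1.

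In the remaining transferase classes no probe was called. Gstp1 and Gstp2, Pi-class genes that oligodendrocytes express, had probes of both signs, from -0.07 to 0.11. Also chosen after the values were seen, Gstt3 averaged 0.20 ± 0.16 (adjusted p 0.0738) and Gsto2 averaged -0.18 ± 0.21 (adjusted p 0.149), the furthest from 0 among uncalled transferase probes. The 2 Gsta3 probes read at least 0.18 on arrays 3 and 4 and less on the others, and averaged 0.13 ± 0.27 and 0.19 ± 0.22. Gsta4, Gstk1, Gsto1, Gstt1, Gstt2 and Gstz1 averaged between -0.12 and 0.06. Gsta2, Gstp3, Gstt4 and 1 of 2 Gstm3 probes were not well above background on any array.

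Among glutathione peroxidases, 6 of 8 genes were kept and 1 was called. Gpx8, a peroxidase of the endoplasmic reticulum membrane, read 0.32, 0.24, 0.20 and 0.48, highest on array 4 and lowest on array 3. Its mean was 0.31 ± 0.13 (adjusted p 0.0161). Log2 intensities were 9.15, 9.14, 9.41 and 9.03 in wild type and 9.47, 9.38, 9.61 and 9.51 in knockout. Only the lowest knockout sample fell under the highest wild-type sample. The arrays again ranked as the meningeal and endothelium lists did, whose part was not tested. The call ended without replicate 1, without replicate 2, without pairing and with the processed signals.

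Gpx4, which reduces lipid hydroperoxides in membranes and guards against ferroptosis, read -0.17, -0.09, -0.08 and -0.06. It was below 0 on each array but not called (mean -0.10 ± 0.05, interval -0.19 to -0.0063, adjusted p 0.137). Its wild-type log2 intensities, 15.16 to 15.32, lay above those of knockout, 15.09 to 15.15, without overlap, as for 13.5% of all kept probes. Gpx1, the cytosolic enzyme, averaged 0.06 ± 0.02. Gpx2, Gpx3 and Gpx7 averaged within 0.02 of 0. Gpx5 and Gpx6, peroxidases known from the epididymis and the olfactory epithelium, were not well above background.

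Glutaredoxins reduce protein disulfides and glutathionylated proteins, and some carry iron-sulfur clusters. Glrx2, the mitochondrial form, had 3 probes with the same transcript accession, and they disagreed. Probe A_55_P2106078 read 0.74, 0.70, 0.71 and 0.55, high on all 4 arrays, with a mean of 0.68 ± 0.09 (adjusted p 0.000754). Its log2 intensities were 17.26, 17.28, 17.31 and 17.41 in wild type and 18.00, 17.98, 18.02 and 17.96 in knockout, fully apart. Probe A_52_P514107 read -0.13, 0.04, 0.07 and 0.04 (mean 0.0048 ± 0.09), and probe A_55_P2095384 read 0.05, -0.01, 0.01 and 0.05 (mean 0.02 ± 0.03). Neither differed from 0 beyond its spread, and their intervals ended at 0.11 and 0.11. Their mean wild-type log2 intensities were 8.27 and 12.59, against 17.31 for A_55_P2106078. Whether the 3 probes measure the same transcripts was not tested.

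Brightness set the high Glrx2 probe apart. Only 8 kept probes in all were brighter. Of the brightest 1% of kept probes, 49.1% were called, 43.7% higher and 5.42% lower, with a median log2 ratio of 0.14, and 3 of these 277 probes, this one included, had a ratio at least as large. The part of brightness or dye in its value was not tested. The call held in all 13 alternatives, at 0.44 to 1.37.

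**Figure D3:**
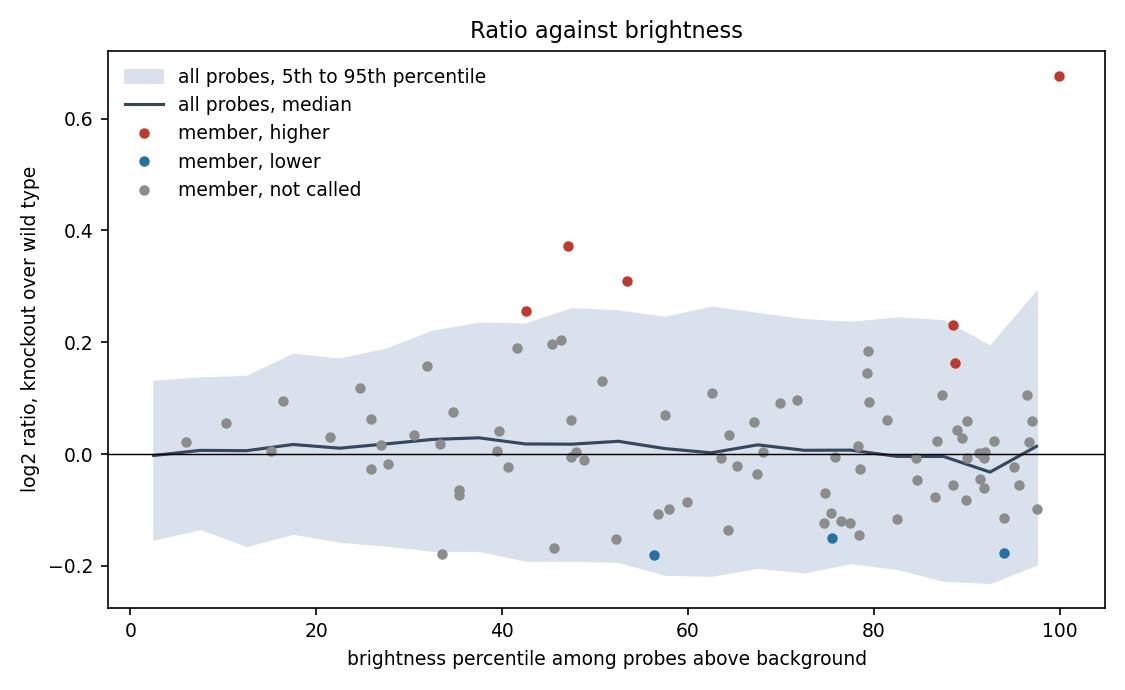
Log2 ratio (knockout over wild type, mean of 4 arrays) against brightness percentile among the 27661 kept probes; the shaded band spans the 5th to 95th percentile of all probes in bins of 5%, the line is their median, and points are the 91 member probes. The Glrx2 probe at the far right is the highest point, and most members lie within the band.

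Glrx5, a mitochondrial glutaredoxin that transfers iron-sulfur clusters, rose on its single probe. It read 0.13, 0.21, 0.15 and 0.17, close together and above 0 (mean 0.16 ± 0.03, adjusted p 0.0336). Wild-type log2 intensities were 13.00, 12.94, 12.83 and 12.57 and knockout ones 13.13, 13.14, 12.98 and 12.74, so the genotypes overlapped while the pairs ran together. The call ended in 8 of 13 alternatives, each left-out array among them. The cytosolic gene Glrx averaged 0.11 ± 0.12 and Glrx3 averaged -0.0064 ± 0.08.

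The thioredoxin core had no called probe among 7 in limma (3 at an unadjusted p under 0.05, those of the reductases). Txn1, cytosolic thioredoxin, read 0.05, 0.04, 0.0036 and 0.03 and averaged 0.03 ± 0.02 (interval -0.06 to 0.12). Txn2, its mitochondrial counterpart, averaged -0.06 ± 0.02, below 0 on each array. The reductases were chosen after their values were seen. The cytosolic Txnrd1, an NRF2 target, read 0.34, 0.31, 0.06 and 0.03, high on arrays 1 and 2 only, with a mean of 0.18 ± 0.16 (adjusted p 0.0934). The mitochondrial Txnrd2 (-0.14 ± 0.06, adjusted p 0.0599) and Txnrd3 (-0.17 ± 0.14, adjusted p 0.0951) stood below 0 on every array. Txnip, which binds and inhibits thioredoxin, ranged from -0.41 on array 1 to 0.22 on array 4 on its brighter probe and averaged -0.01 ± 0.29.

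Thioredoxin-domain and thioredoxin-like genes are a mixed group of folding enzymes, chaperone partners and a spliceosome component. Of 17 probes, 14 were kept and 1 was called. Txndc9, which binds the chaperonin that folds actin and tubulin, fell on 1 of 3 probes, which median centring without loess put at 0.11. Probe A_55_P1979221 read -0.18, -0.26, -0.19 and -0.08, below 0 throughout (mean -0.18 ± 0.07, adjusted p 0.0368). Its log2 intensities were 9.75, 9.64, 9.67 and 9.53 in wild type and 9.57, 9.38, 9.48 and 9.45 in knockout, overlapping only between pairs. Probe A_55_P2162552 averaged -0.12 ± 0.04 (adjusted p 0.0738), with wild type above knockout in all samples. The third, A_55_P2162557, averaged 0.06 ± 0.05 and had the other sign. The call ended in 6 of 13 alternatives.

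Txndc16 was the only member on chromosome 14, which carries Ndrg2, and starts 6.77 Mb from it in GRCm38.p6. It read -0.02, 0.02, 0.12 and 0.26, mixed in sign, and averaged 0.10 ± 0.13 (adjusted p 0.261). Txnl4a, of the spliceosome, stood at -0.12 ± 0.09 and -0.05 ± 0.10. Txndc11, chosen after its values were seen, averaged 0.14 ± 0.04 on its brighter probe, just short of the threshold (adjusted p 0.0506). The kept probes of Txndc5, Txndc12, Txndc15, Txndc17, Txnl1 and Txnl4b averaged between -0.08 and 0.03. Txndc2 and Txndc8, thioredoxins of male germ cells, were well above background in no channel on all 4 arrays.

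Peroxiredoxins reduce hydrogen peroxide with electrons from thioredoxin, and sulfiredoxin (Srxn1) repairs them when overoxidised. Of 11 kept probes, 1 was called. Prdx2, the cytosolic form abundant in neurons, read -0.18, -0.11, -0.20 and -0.22, below 0 on each array (mean -0.18 ± 0.05, adjusted p 0.0302). Its log2 intensities of 14.14, 14.07, 14.03 and 14.24 in wild type all exceeded those of 13.97, 13.96, 13.83 and 14.02 in knockout. The genotypes thus did not overlap, as for 13.5% of all kept probes. Between the 90th and 95th percentile of brightness, where this probe lies, 13.4% of kept probes were called lower and 6.94% higher, with a median of -0.03. The part of brightness in its value was not tested. Median centring without loess put the probe at 0.30, above 0, and the call ended in 9 of 13 alternatives, each left-out array and the processed signals among them.

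No other peroxiredoxin was called. Prdx4, of the endoplasmic reticulum and chosen after its values were seen, read -0.14, -0.16, -0.10 and -0.15 and just missed the threshold (mean -0.14 ± 0.02, adjusted p 0.0522). The mitochondrial Prdx3 averaged -0.11 ± 0.12. Prdx1 stood at -0.09 ± 0.05 and -0.05 ± 0.09 on 2 probes. Prdx6, the astrocyte-rich form, had 4 probes between -0.0072 and 0.10, while Prdx5 averaged -0.02 ± 0.06 and Prdx6b was not well above background. Srxn1, a textbook NRF2 target, read -0.04, 0.05, -0.02 and 0.03, on both sides of 0, and averaged 0.0039 ± 0.04 (interval -0.09 to 0.09).

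Among 5 probes of catalase and the superoxide dismutases, 1 was called. Cat, the peroxisomal enzyme that splits hydrogen peroxide, read 0.24, 0.21, 0.28 and 0.19 on probe A_55_P2148873, close together on all arrays. The mean was 0.23 ± 0.04 (adjusted p 0.0141). Wild-type log2 intensities were 12.56, 12.72, 12.93 and 12.89 and knockout ones 12.80, 12.92, 13.21 and 13.08, overlapping between pairs. Its other probe (A_51_P191611) read -0.05, 0.17, 0.19 and 0.32 and averaged 0.16 ± 0.15 (adjusted p 0.124). The call ended without replicates 1, 2 or 3 in turn and without pairing. Sod1, of the cytosol, averaged 0.06 ± 0.03, the mitochondrial Sod2 averaged 0.02 ± 0.05 and the extracellular Sod3 averaged 0.0042 ± 0.10; none was called.

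**Figure D4:**
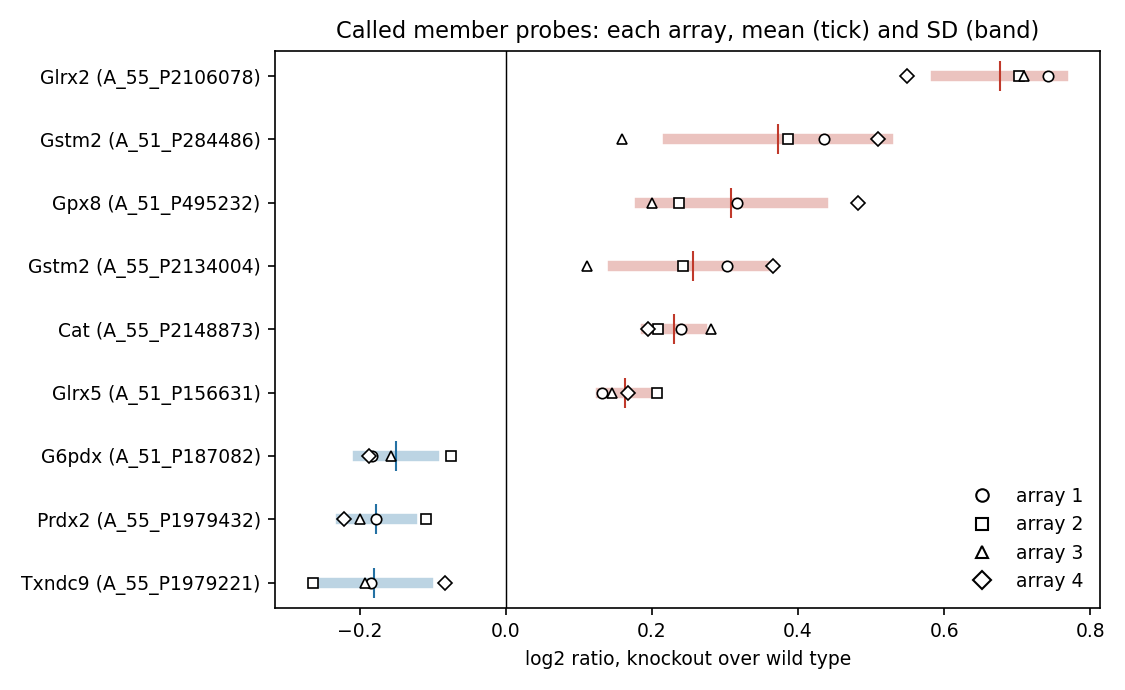
Log2 ratio (knockout over wild type) of the 9 called member probes on each of the 4 arrays (open symbols), with the mean (tick) and SD (band). All 4 arrays lie on 1 side of 0 for each probe, and the widest spreads are those of Gstm2 (SD 0.15) and Gpx8 (SD 0.13). The 3 lower probes turn above 0 with median centring in place of loess.

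Probes of 1 gene could be compared for 19 genes with 2 or more kept probes. Of these, 13 genes had probes of 1 sign and 6 had both. The median span between the lowest and highest probe of a gene was 0.08. The span was widest for Glrx2 (0.67), then Gstm2 (0.35) and Txndc9 (0.24). The lowest Gstm2 probe is the dim one described above. Of the 4 such genes with a called probe, Cat, Glrx2, Gstm2 and Txndc9, only Gstm2 had 2 called and none had every kept probe called.

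**Figure D5:**
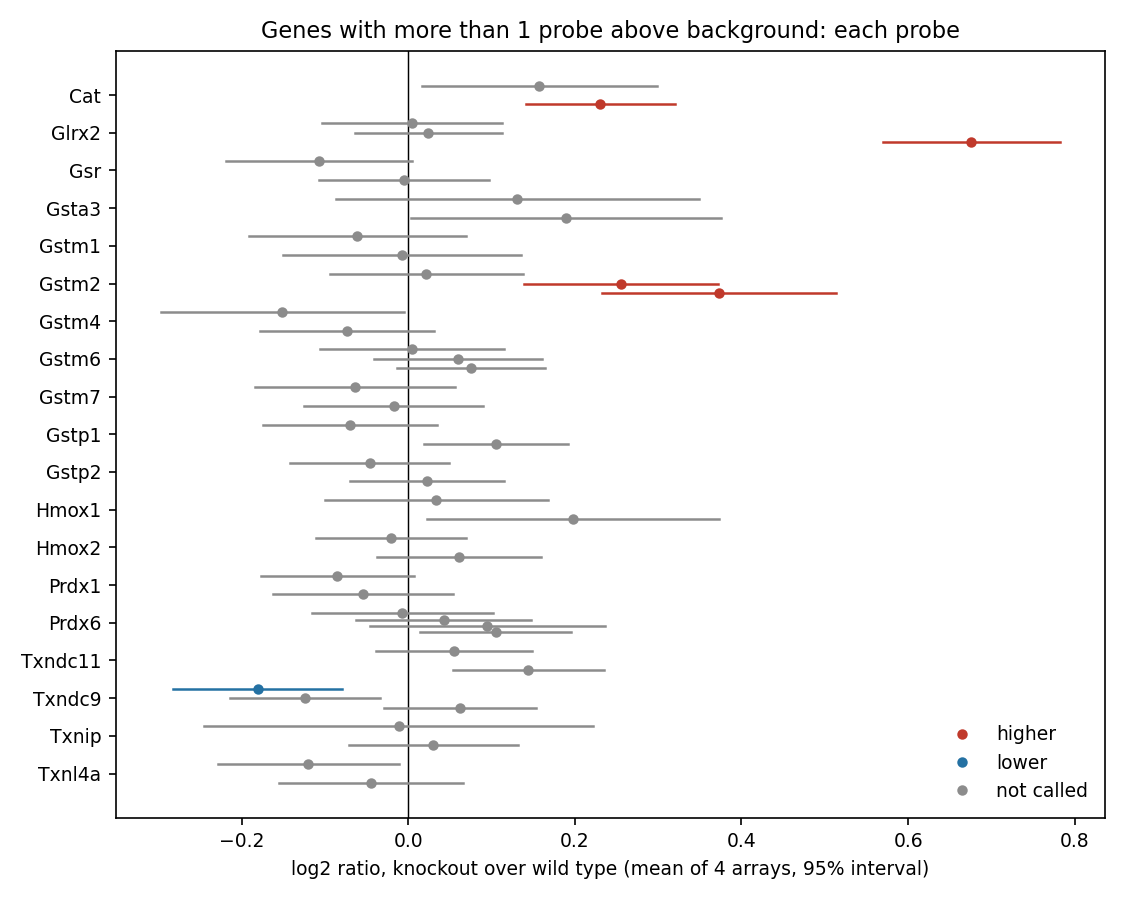
Mean log2 ratio (knockout over wild type, 4 arrays) with its 95% interval for every kept probe of the 19 member genes with 2 or more kept probes; red is called higher, blue called lower. In Glrx2, Gstm2 and Txndc9 a called probe stands clear of another probe of the same gene.

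With 1 probe a gene, the brightest, 10 of 66 member genes were called (15.2%), against 17.3% of all 15757 genes. Of these, 6 were higher (9.09%, against 10.4%) and 4 lower (6.06%, against 6.9%). Txndc11 (0.14, adjusted p 0.0404) joined those higher. Prdx4 (-0.14, adjusted p 0.0409) and Txnrd2 (-0.14, adjusted p 0.0494) joined those lower, and Txndc9, whose brightest probe was not called, left.

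Pathway genes outside the rule were counted in the same fit, in lists made with earlier results of these data known. Their counts are therefore descriptions and test nothing. Of 20 further NRF2 target genes tested, 10 were called, 6 higher and 4 lower, with a median of 0.04 (all genes, 17.3% called). Slc7a11, the cystine importer for glutathione synthesis, was at 0.50 ± 0.06 (adjusted p 0.00079) and the ferritin heavy chain gene Fth1 at 0.40 ± 0.08 (adjusted p 0.00332). In the other direction, Abhd4, a lipid hydrolase gene, was at -0.40 ± 0.07 (adjusted p 0.00271). Transketolase (Tkt), like G6pdx an enzyme of the pentose phosphate pathway, was at -0.25 ± 0.04, though it falls outside the naming rule and was chosen after its value was seen.

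In the lists that follow, the counts stand against 10.4% of all genes called higher and 6.9% lower. Among 13 regulators that act beside NRF2, 2 were higher and 2 lower: the repressor gene Bach2 was at 0.25 ± 0.10, the ubiquitin ligase gene Btrc at 0.23 ± 0.09 and the NRF2-related gene Nfe2l3 at -0.24 ± 0.16 (adjusted p 0.0383). Of 25 glutathione-handling genes, 1 was higher and 3 lower. Esd, which hydrolyses S-formylglutathione and lies on chromosome 14, was at -0.77 ± 0.06 (adjusted p 0.000463), and the microsomal transferase genes Mgst3 and Mgst2 were at -0.30 ± 0.18 and -0.22 ± 0.14. Of 13 further NADPH-supplying genes none was called, while limma's unadjusted p was under 0.05 for 1. Of 30 selenoprotein, repair and metal-binding genes, 6 were higher, led by the metallothionein genes Mt1 (0.45 ± 0.12) and Mt2 (0.35 ± 0.27) and the selenoprotein gene Selenow (0.27 ± 0.09), and 1 was lower. Of 14 oxidant-producing genes, 3 were higher, namely the endothelial nitric oxide synthase gene Nos3 (0.30 ± 0.11) and the disulfide oxidase genes Ero1b (0.22 ± 0.08) and Ero1a (0.14 ± 0.04), and none was lower.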

How the data were processed

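The input was 200 ng of total RNA, per the labels, and the dyed samples were hybridised to 4 dual-colour Agilent arrays. The authors extracted spot intensity with Agilent Feature Extraction; the file headers give version 11.0.1.1, whereas the submitters' processing notes name 10.7.3.1. The deposited intensity is the median pixel signal of a spot, with its local background, and the processed signal is after background subtraction and dye normalization. The authors also deposited a log2 table; its values match log2 of red over green processed signal within 0.01. The scanner's log10 ratio, deposited in the same files, was not used.

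Here intensities were corrected by normexp (offset 50, which shrinks ratios of dim probes) and normalized by loess within each array, with 1377 control spots at weight 0 and 802 outlier spots left out. An intercept-only model was fitted with limma 3.58.1 in R 4.3.3 (3 residual and 4.47 prior degrees of freedom), adjusted by Benjamini-Hochberg over 27661 kept probes. Ratios already pair the samples of 1 replicate number. Log2 intensities per sample are after Aquantile scaling between arrays. The pipeline was tested on simulated arrays.

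Symbols came from a GRCm38.p6 gene table by accession. The members, lists and rules were chosen with earlier results of these data known. Named were the 16 single genes of the rule, every gene with a called probe (with all its kept probes; at most 8 for each family), the 2 brightest of a family with none, members on chromosome 14 or never kept, and up to 3 called genes for each further pathway list. Other members are given by range, or named after their values were seen. Alternatives changed the signal, background correction, normalization, filter, variance model, pairing and arrays.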

Additional observations from a re-analysis of the deposited data

Results flagged for a closer look

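Among 92 probes tested for a single array far from the other 3 (91 member probes and Ndrg2), 5 were picked out, and chance gives about 1 in 20. The Ndrg2 probe read 0.11 on array 1, against 0.37 to 0.40 on the others. The uncalled Glrx2 probe A_52_P514107 read -0.13 on array 1, against 0.04 to 0.07. The uncalled Gstm2 probe A_55_P1966438 read 0.18 on array 4, against -0.05 to -0.02. Sod1 read 0.018 on array 4, against 0.067 to 0.076, and Txn2 read -0.025 on array 4, against -0.068 to -0.064.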

How the results depend on the processing

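The results rest on 4 arrays and small ratios, so most counts moved. Without each replicate in turn, member probes called ranged from 1 to 6 (higher 1 to 5, lower 0 to 1), member genes called from 1 to 5, and Ndrg2 from 0.29 to 0.39, which missed the threshold on leaving out replicate 2 (adjusted p 0.0797 for 0.30) or replicate 3 (adjusted p 0.0651 for 0.29). Member probes called were 5 with the processed signals, 5 with the deposited log2 table and 5 with normexp offset 10 (lower: 1, 1 and 0; of all kept probes 7.92%, 7.92% and 8.65%), and member genes called were 5 with the first 2 of these. With no replicate block (each channel as a sample of its own, unpaired), 1 member probe (higher 1, lower 0) and 1 member gene were called (968 of all 27661 kept probes), and Ndrg2 missed the threshold (0.32, adjusted p 0.0599), as it also did with the processed signals and the deposited table (0.26 in both). Median centring without loess moved the median of all kept probes to 0.22 and that of members to 0.35, with 75 member probes called (72 higher; 82.4%, against 79.3% of all kept probes) and 57 member genes. It also turned the sign of G6pdx (0.22), Gclm (0.22), Gsr (0.36 for A_55_P1966982 and 0.19 for A_55_P2103055), Gstm2 A_55_P1966438 (-0.34), Hmox2 A_55_P2062678 (0.31), Keap1 (0.27), Prdx2 (0.30), Txn2 (0.44) and Txndc9 (0.11 for A_55_P1979221 and 0.24 for A_55_P2162552). The cause of these changes was not tested. Values within 0.05 of 0 also changed sign. Glrx2 A_52_P514107 was -0.021 with the processed signals, -0.021 with the deposited table, -0.026 with no background correction and -0.012 with offset 10, and Sod3 was -0.0078 and -0.0042 with the last 2. Without each replicate in turn, Gclm ranged from -0.019 to 0.0094, Glrx2 A_52_P514107 from -0.017 to 0.050, Gsr A_55_P1966982 from -0.040 to 0.023, Gss from -0.020 to 0.086, Gstm2 A_55_P1966438 from -0.032 to 0.044, Hmox1 A_55_P2029687 from -0.012 to 0.081, Sod3 from -0.026 to 0.037 and Srxn1 from -0.010 to 0.020. Of the 9 called probes, Glrx2 A_55_P2106078 alone stayed called in all 13 alternatives.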
